A study of Mus musculus with 4 samples.

Results

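Myosins are actin-based motor proteins, and the unconventional classes move cargo, tether membranes or shape actin-rich protrusions instead of forming muscle-like filaments. Described here are Myo3b, the gene of a class III myosin that carries a protein kinase domain ahead of its motor, and 8 others: Myo1d, Myo5a, Myo5b, Myo6, Myo9a, Myo10, Myo16 and Myo18a. The 9 genes were taken by symbol from a table of 25259 genes, and all 9 were found. Myo3b was chosen by its measured trend between the genotypes. The other 8 were chosen by symbol, with earlier results of these data known. The genotype values of Myo3b, and its regional values within each genotype, are therefore given as a description and without a test.

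The tissue was dorsal striatum of C57BL/6 mice aged 8 weeks, captured by laser from its dorsomedial (DMS) or dorsolateral (DLS) part. The animals were wild-type, or homozygous for a humanised allele, Foxp2hum/hum. Foxp2 encodes a forkhead transcription factor of striatal projection neurons, and the allele gives the mouse protein amino acids found in the human one. By its title, the study concerns the shift from declarative to procedural learning in these mice. There were 11 libraries of wild-type DMS, 12 of Foxp2hum/hum DMS, 11 of wild-type DLS and 12 of Foxp2hum/hum DLS, 46 in all. The labels name neither the animal behind a library nor its flow cell. P-values therefore measure the spread between libraries, and no value within a flow cell can be given.

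Class V myosins carry organelles and vesicles along actin, and Myo5a takes smooth endoplasmic reticulum into the dendritic spines of neurons. Myo6 is the motor that walks towards the pointed end of actin filaments and serves endocytosis. Myo10 builds filopodia, Myo9a carries a GTPase-activating domain, Myo16 is a neuronal myosin with ankyrin repeats, and Myo18a links the Golgi to actin. Class III myosins are best known from the stereocilia of hair cells and from photoreceptors.

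The start regions of the 4 genes that differed between DMS and DLS are shown here first, to set the letters of their starts beside the values, and they were searched for forkhead motifs because Foxp2 is a forkhead factor. Each runs from 250 bases before the start of the RefSeq transcript to 50 bases after it, 5′ to 3′ on the strand of the gene, from RefSeq on GRCm38.p6. Capitals mark a match to the forkhead core GTAAACA or to CAAATT, an element used in studies of FOXP2 binding, on either strand (TGTTTAC or AATTTG). A single match was found, so no matches overlap.
Myo3b, chr2:70038876-70039175, plus strand: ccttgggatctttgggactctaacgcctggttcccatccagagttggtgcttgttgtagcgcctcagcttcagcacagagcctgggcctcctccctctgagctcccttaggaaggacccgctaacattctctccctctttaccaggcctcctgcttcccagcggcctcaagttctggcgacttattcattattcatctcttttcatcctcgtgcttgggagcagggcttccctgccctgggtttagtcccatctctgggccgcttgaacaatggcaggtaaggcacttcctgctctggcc
Myo5a, chr9:75070956-75071255, plus strand: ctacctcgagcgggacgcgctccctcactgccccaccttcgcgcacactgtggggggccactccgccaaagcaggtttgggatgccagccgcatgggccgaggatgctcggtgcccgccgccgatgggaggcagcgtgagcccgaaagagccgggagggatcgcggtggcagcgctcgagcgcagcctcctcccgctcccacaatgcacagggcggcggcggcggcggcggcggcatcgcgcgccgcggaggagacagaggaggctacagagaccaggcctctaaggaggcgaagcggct
Myo18a, first of its 2 RefSeq starts, chr11:77776985-77777284, plus strand: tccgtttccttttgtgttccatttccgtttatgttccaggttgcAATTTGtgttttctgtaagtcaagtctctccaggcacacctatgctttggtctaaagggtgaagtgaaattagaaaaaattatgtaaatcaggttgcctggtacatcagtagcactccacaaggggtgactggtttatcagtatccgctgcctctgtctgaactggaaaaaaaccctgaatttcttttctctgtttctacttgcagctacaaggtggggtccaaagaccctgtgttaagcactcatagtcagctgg
Myo16, chr8:10153661-10153960, plus strand: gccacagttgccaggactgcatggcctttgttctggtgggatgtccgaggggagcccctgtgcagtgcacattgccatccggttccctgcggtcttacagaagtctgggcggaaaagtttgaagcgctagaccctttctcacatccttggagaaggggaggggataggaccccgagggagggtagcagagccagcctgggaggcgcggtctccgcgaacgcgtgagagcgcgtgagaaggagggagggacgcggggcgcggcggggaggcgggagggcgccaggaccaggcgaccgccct

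Of the 9 genes, 7 had entries, with 9 windows among them. None of the 9 windows held GTAAACA, which 3.65% of the 32851 windows of the same length hold. CAAATT was in 1 of the 9, the Myo18a window above, where it lies at position -206 from the start, and 11% of all windows hold it. The GC content was 56.3% for Myo3b, 72% for Myo5a, 66% for Myo16 and 43% for this Myo18a window, against a median of 52.7% over all windows.

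These windows were also matched to mm9, the build of the deposited values. The Myo3b window had 1 exact match, and the RefSeq start lay 0 bases from the start of the GENCODE gene. The RefSeq start of Myo16 lay at -118661 bases relative to its GENCODE start, outside the annotated gene. That of Myo18a lay 13989 bases inside its gene.

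Myo3b (ENSMUSG00000042064, mm9 chromosome 2, 69877183 to 70267255, plus strand) was the member that differed most between the regions. In wild-type DMS the lowest library had 132 normalised reads, the median was 184 and the highest was 308. In wild-type DLS the lowest was 372, the median 473 and the highest 761. Every wild-type DLS library lay above every wild-type DMS library, an arrangement that 1.02% of the 19561 tested genes showed with DMS lower. In Foxp2hum/hum DMS the lowest library was at 129, the median at 160 and the highest at 227. In Foxp2hum/hum DLS these values were 226, 317 and 437, so that the highest DMS and the lowest DLS library overlapped by a narrow margin. In Foxp2hum/hum 1.15% of genes, and over both genotypes 0.537%, had every DMS library below every DLS library, and Myo3b was not among them.

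Over both genotypes, all 23 DMS libraries lay below the DLS median of 403, and 18 of 23 DLS libraries lay above the highest DMS library. The regional difference averaged over the genotypes gives each genotype the same weight and so does not use the difference for which Myo3b was picked. It was -1.16 ± 0.09 on the log2 scale (SE; 95% interval -1.34 to -0.99), or 2.24-fold lower in DMS (limma adjusted p = 9.96e-16). By p-value, 0.813% of the tested genes differed more clearly. The log2 value was -1.20 to -1.13 when any 1 of the 46 libraries was left out, and -1.08 to -1.19 over the scalings tried.

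**Figure D1:**
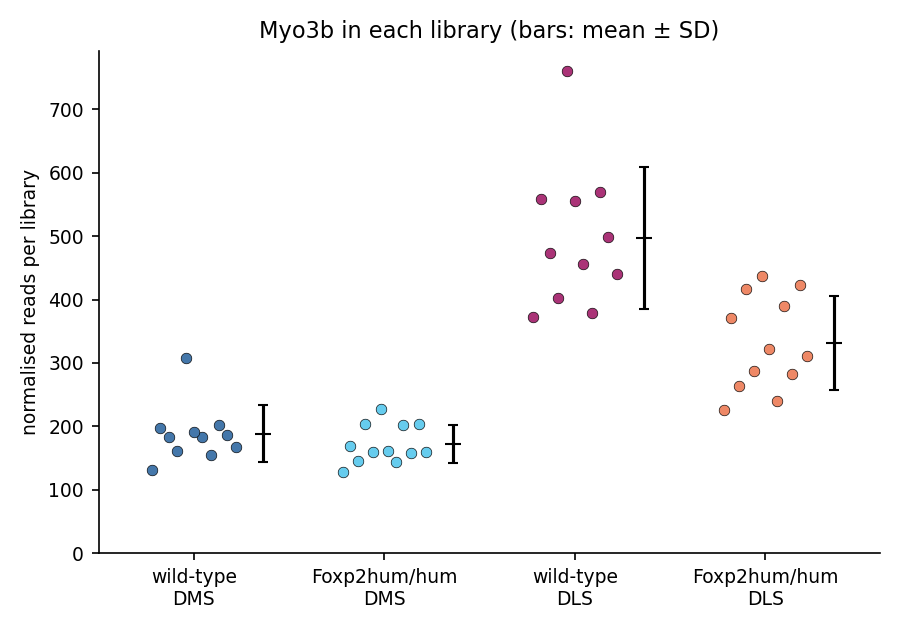
Normalised reads of Myo3b in each of the 46 libraries (points), with the mean and SD of each group beside them, on a linear axis from 0. The 11 wild-type DLS libraries, from 372 to 761, sit above all DMS libraries, which run from 129 to 308.

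Between genotypes the values are a description. In DLS, Myo3b averaged 497 ± 112 normalised reads in wild-type (SD, n = 11) and 331 ± 74.2 in Foxp2hum/hum (n = 12). Of the Foxp2hum/hum libraries, 8 of 12 lay below the lowest wild-type one and 12 of 12 below the wild-type median, while 8 of 11 wild-type libraries lay above the highest Foxp2hum/hum one. In DMS the means were 188 ± 44.9 and 172 ± 30.2, and the groups overlapped widely. The log2 difference, Foxp2hum/hum minus wild-type, was -0.59 in DLS and -0.12 in DMS. From the highest mean to the lowest, the order was wild-type DLS, Foxp2hum/hum DLS, wild-type DMS and Foxp2hum/hum DMS, and the last pair differed by less than 1 SD.

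Libraries 70 (wild-type DLS) and 72 (wild-type DMS) held the highest Myo3b value of their groups, 761 and 308, where the next values were 570 and 203. They also had the lowest share of mitochondrially encoded reads of their groups, 18.2% and 11.9%. A normalised value is the reads divided by the size factor of the library. The 308 of library 72 came from 166 reads and a size factor of 0.539, the lowest of all 46. The 761 of library 70 came from 621 reads and a size factor of 0.816. Without libraries 70 and 72, the log2 difference between genotypes was -0.52 in DLS and -0.05 in DMS. With all libraries scaled to their total without mitochondrially encoded genes, it was -0.59 in DLS and -0.05 in DMS. The regional difference averaged over genotypes was -1.17 without libraries 70 and 72. The part of RNA quality, capture or size factor in these values was not tested.

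Library totals ran from 16.8 to 41.01 M reads (M for mega), and 138 to 903 of the reads of a library were of Myo3b. Mitochondrially encoded genes took 11.9% to 30.7% of the reads. Of 8 genes that mark medium spiny neurons, which project out of the striatum, 8 were detected in every group and 7 were lower in DMS, with a median log2 of -0.46. Their summed level ran from 75700 to 108300 normalised reads in DMS libraries and from 107000 to 149300 in DLS libraries.

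The Myo3b estimate of -1.16 lies beyond those of these 8 markers; the difference from them was not tested. Of the interneuron markers 3 of 5 were lower in DMS, the lowest Pvalb at -2.42. Markers of choroid plexus and ependyma were higher in DMS for 6 of 7 genes, with sums of 373 to 10740 normalised reads in DMS libraries and 151 to 386 in DLS libraries. All 4 markers of immature neurons were higher in DMS. Of the other marker lists, 2 of 8 oligodendrocyte, 2 of 6 astrocyte and 1 of 6 endothelial and mural genes were higher in DMS, and 0 of 6 microglial and 0 of 4 cortical genes passed. The estimates of 1 of 8 oligodendrocyte, 4 of 6 astrocyte and 5 of 6 endothelial and mural genes were below 0. Their median log2 values were 0.06, -0.04 and -0.02, so these 3 lists had no common direction. Over all genes tested 16.5% passed as higher in DMS and 15.3% as lower, the shares beside which each marker count stands. No marker was at 0 in all libraries of a group. In these bulk captures fewer cells of a type and less RNA per cell cannot be told apart, and the part of tissue makeup in the Myo3b result was not tested. With the level of the choroid plexus gene Ttr as a covariate, the Myo3b difference was -1.14 (limma adjusted p = 1.28e-10). Ttr itself was higher in DMS (log2 5.12), so a fit with this covariate cannot fully separate its level from region. The same limit holds for every value given with Ttr as a covariate.

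Of the 9 members, 4 passed in the regional comparison averaged over genotypes, against 31.8% of all 19561 genes tested. They were Myo3b, Myo5a and Myo18a, lower in DMS (15.3% of all genes), and Myo16, higher in DMS (16.5%). The median log2 over the members was -0.03 and over all genes 0.01. A count of 4 in 9 is too near that share to be a result about the family. In wild-type, leaving Myo3b aside, 1 member was lower (Myo5a) and 0 were higher, where 17.3% of genes passed (8.72% lower and 8.54% higher). In Foxp2hum/hum 1 was lower (Myo5a) and 1 higher (Myo16), where 18.1% passed (8.82% lower and 9.33% higher). When libraries were scaled to their total without mitochondrially encoded genes, 74.6% of the genes called were higher in DMS, against 52% with the authors' scaling, and the median of all genes moved from 0.01 to 0.10.

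**Figure D2:**
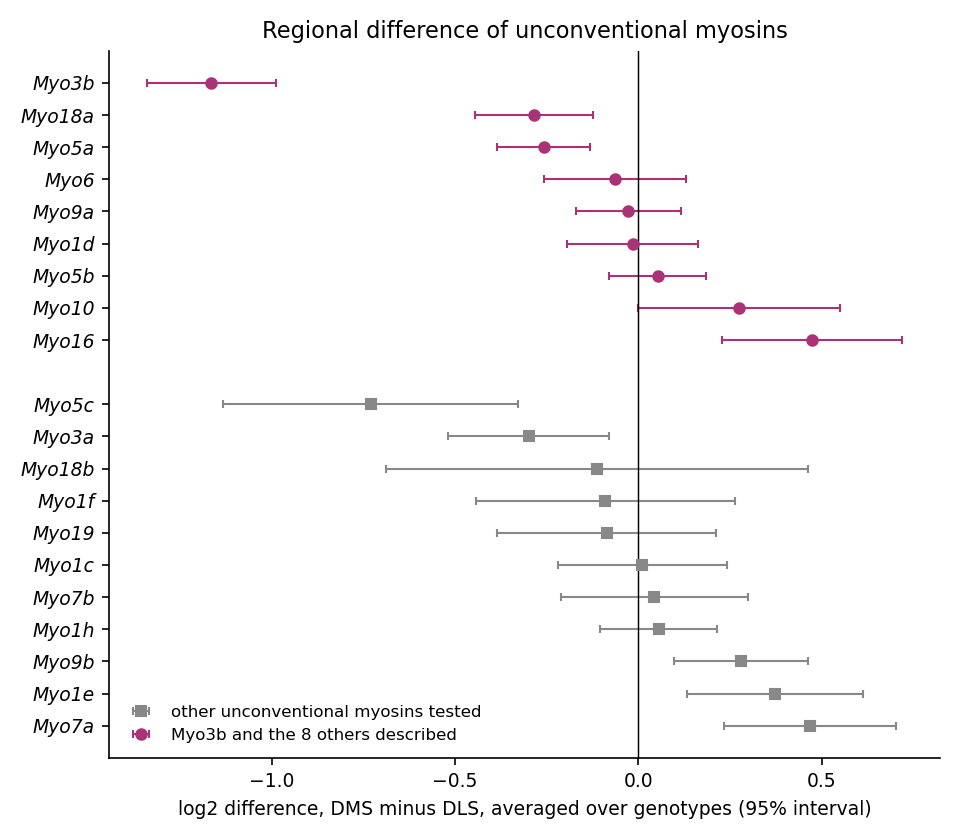
Log2 difference, DMS minus DLS, averaged over the genotypes, with 95% intervals from limma, for the 9 genes described (circles) and other tested unconventional myosins (squares). Myo3b stands at -1.16, and the other genes drawn lie between -0.73 and 0.47.

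Myo5a, the vesicle and spine motor (ENSMUSG00000034593, chromosome 9, 74918822 to 75071495), was modestly lower in DMS. Wild-type libraries ran from 3138 to 5194 in DMS with a median of 3855, and from 3565 to 6134 in DLS with a median of 4759. Foxp2hum/hum libraries ran from 2916 to 4239 in DMS (median 3497) and from 3688 to 5701 in DLS (median 4049). The regions overlapped in both genotypes, although 21 of 23 DMS libraries lay below the DLS median. The log2 difference was -0.26 ± 0.06 (SE, limma adjusted p = 0.00105), with -0.26 in wild-type (limma adjusted p = 0.0422) and -0.26 in Foxp2hum/hum (limma adjusted p = 0.0288). The call was lost with quantile normalisation (log2 -0.17, limma adjusted p = 0.0627) and without mitochondrially encoded genes in the scaling (-0.17, limma adjusted p = 0.117). Relative to the median of all genes, Myo5a was -0.27 with the authors' scaling and -0.15 with quantile normalisation. It was -0.27 with the scaling that leaves mitochondrially encoded genes out. Within genotypes both calls were lost too, with quantile normalisation (wild-type limma adjusted p = 0.289, Foxp2hum/hum 0.253) and with that scaling (limma adjusted p = 0.2995 and 0.471). The wild-type call was also lost with no filter on low values (limma adjusted p = 0.0511) and when the compared groups were fitted alone (limma adjusted p = 0.0966).

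Myo5a overlaps Gm9719 on the opposite strand, whose value amounts to 9.41% of it. Gm9719 averaged 407 ± 141 and 441 ± 143 normalised reads in wild-type and Foxp2hum/hum DMS (SD, n = 11 and 12), against 341 ± 158 and 377 ± 152 in DLS. With the Gm9719 value subtracted in full, library by library, the log2 difference of Myo5a was -0.31 (limma adjusted p = 0.00187). That subtraction assumes that every Gm9719 read was also counted for Myo5a, which was not tested. In wild-type alone the Myo5a call was lost in 14 of the 46 fits that left out 1 library, with log2 values from -0.30 to -0.22, the last without library 89 (limma adjusted p = 0.0951). In Foxp2hum/hum it was lost in 2 of 46, with -0.22 without library 94 (limma adjusted p = 0.0636).

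Myo18a, the Golgi-linked member (ENSMUSG00000000631, chromosome 11, 77576748 to 77679482), followed the same direction. In DMS its wild-type libraries ran from 1119 to 2202 with a median of 1671, and its Foxp2hum/hum libraries from 1114 to 1903 with a median of 1539. In DLS the ranges were 1511 to 2689 (median 1827) and 1350 to 2312 (median 1856). The regions overlapped, with 19 of 23 DMS libraries below the DLS median. The log2 difference was -0.28 ± 0.08 (SE, limma adjusted p = 0.00479), 1.22-fold lower in DMS. It did not pass within either genotype (-0.29 in wild-type and -0.28 in Foxp2hum/hum; limma adjusted p = 0.0793 and 0.0757). It passed there with array weights (limma adjusted p = 0.0243 and 0.0455) and in 3 and 4 of the 46 fits that left out 1 library. The call was also lost without mitochondrially encoded genes in the scaling (-0.20, limma adjusted p = 0.128; -0.30 relative to the median of all genes) and with Ttr as a covariate (-0.27, limma adjusted p = 0.0729). With quantile normalisation the call was kept (-0.21, limma adjusted p = 0.0383), at -0.19 relative to the median of all genes in that fit.

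Myo16, the ankyrin-repeat myosin of neurons (ENSMUSG00000039057, chromosome 8, 10272572 to 10634741), was the member that was higher in DMS. Its wild-type libraries ran from 134 to 351 in DMS (median 231) and from 93.8 to 337 in DLS (median 166). In Foxp2hum/hum they ran from 151 to 287 in DMS (median 214) and from 86.8 to 223 in DLS (median 129). Ranges overlapped in both genotypes, and 19 of 23 DMS libraries lay above the DLS median. The log2 difference was 0.47 ± 0.12 (SE, limma adjusted p = 0.00198), 1.39-fold higher in DMS. It was 0.57 in Foxp2hum/hum (limma adjusted p = 0.0119) and 0.38 in wild-type (limma adjusted p = 0.147), and the interaction was 0.19 ± 0.24 (limma adjusted p = 0.9999). With Ttr as a covariate the averaged difference was 0.38 (limma adjusted p = 0.0998) and that in Foxp2hum/hum 0.46 (limma adjusted p = 0.178), neither past the threshold. With array weights the wild-type difference passed (0.38, limma adjusted p = 0.046), as it did without wild-type DLS library 70 (0.47, limma adjusted p = 0.0499).

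**Figure D3:**
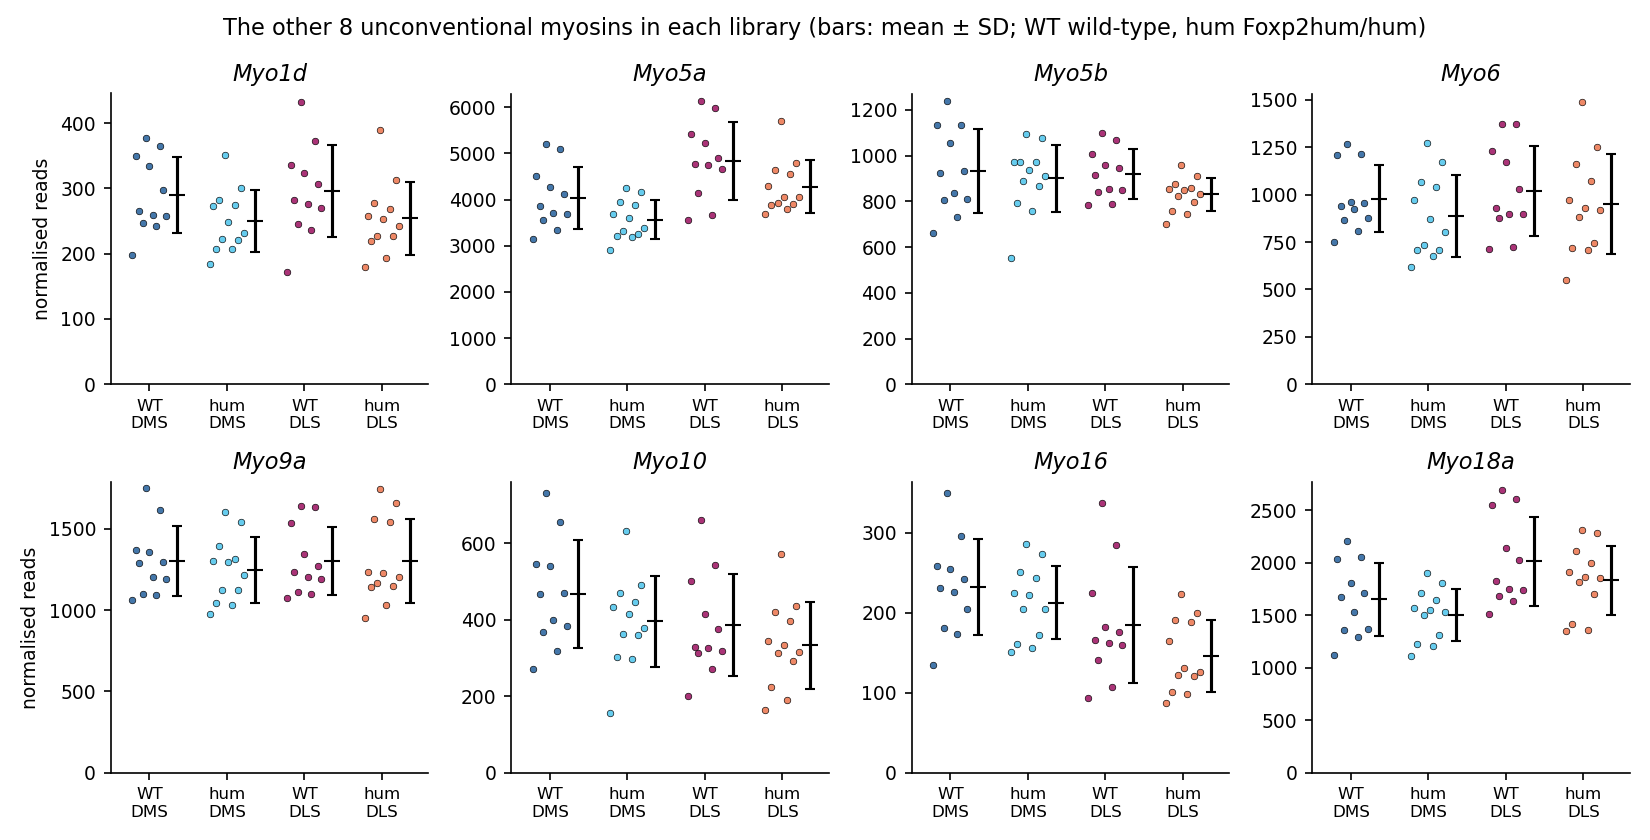
Normalised reads of the other 8 members in each library, 1 panel per gene on linear axes from 0, with the mean and SD of each group. DLS values of Myo5a and Myo18a sit higher than DMS values and those of Myo16 lower, with overlap in all 3 genes.

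The filopodial motor Myo10 (ENSMUSG00000022272, chromosome 15, 25552280 to 25743428) had values on the higher side in DMS but did not pass. It ran from 156 to 731 in DMS (median 414) and from 163 to 662 in DLS (median 328), and was the most variable member within groups, with a coefficient of variation of 29.8% to 34.7%, except in wild-type DLS, where Myo16 reached 39.1%. Its log2 difference was 0.28 ± 0.14 (SE, limma adjusted p = 0.122). It passed without Foxp2hum/hum DMS library 64, which held the lowest DMS value (0.33, limma adjusted p = 0.0399), and with limma array weights (0.28, limma adjusted p = 0.0245).

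No regional difference was detected for Myo1d, Myo5b, Myo6 or Myo9a. Myo1d, a short-tailed class I myosin (ENSMUSG00000035441, chromosome 11, 80295628 to 80593527), ran from 184 to 377 normalised reads in DMS and from 173 to 432 in DLS. Its 95% interval of the log2 difference was -0.19 to 0.16. Myo5b, the class V motor of recycling endosomes (ENSMUSG00000025885, chromosome 18, 74600590 to 74931147), ran from 554 to 1237 in DMS and from 700 to 1098 in DLS, with an interval of -0.08 to 0.18. These intervals leave room for differences of at most 1.14-fold for both genes.

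Myo6 (ENSMUSG00000033577, chromosome 9, 80012838 to 80159536) ran from 619 to 1274 in DMS and from 549 to 1487 in DLS, with an interval of -0.26 to 0.13. Myo9a (ENSMUSG00000039585, chromosome 9, 59598703 to 59776673) ran from 974 to 1747 in DMS and from 950 to 1746 in DLS, with an interval of -0.17 to 0.11. Gm2735, on the opposite strand within Myo9a, amounts to 23.5% of the Myo9a value. It averaged 337 ± 113 and 349 ± 87.7 normalised reads in wild-type and Foxp2hum/hum DMS (SD, n = 11 and 12), against 243 ± 79.9 and 282 ± 58.2 in DLS. With the Gm2735 value subtracted in full, on the same assumption, the Myo9a difference was -0.16 and also did not pass (limma adjusted p = 0.227).

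Levels can be compared between genes per kilobase of merged exons, and are given by region because Myo3b differed between them (normalised reads per kilobase, SD, n = 23 each). In DMS, Myo5a was highest at 256 ± 40.2, and Myo18a (106 ± 20.4), Myo6 (99.2 ± 21.1), Myo9a (97.7 ± 15.8) and Myo5b (93.8 ± 16.7) followed, each within 1 SD of the next. Myo10 (42.5 ± 13.01), Myo1d (41.7 ± 8.61) and Myo16 (32.3 ± 7.67) were lower, and Myo3b had the lowest mean, at 25.3 ± 5.36. In DLS, Myo5a (307 ± 50.8) and Myo18a (129 ± 25.6) again led, followed by Myo6 (105 ± 26.4), Myo9a (99.9 ± 17.7) and Myo5b (89.4 ± 10.2). Myo3b came next at 57.9 ± 17.6, within its own SD of Myo1d (42.4 ± 10.1), which was followed by Myo10 (35.4 ± 12.3), and Myo16 had the lowest mean, at 23.9 ± 8.96. Myo3b thus held rank 1 from the bottom in DMS and rank 4 in DLS.

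Between genotypes, 0 of the 8 members other than Myo3b passed in either region, where limma called 0% of all genes in DMS and 0% in DLS. At an unadjusted p under 0.05 limma gave 700 genes in DMS (3.58%) and 843 in DLS (4.31%), and 0 of the 8 members were among them. By edgeR 0 genes passed in either region (757 and 773 unadjusted), and by DESeq2 0 in DMS and 3 in DLS (713 and 843 unadjusted). For the interaction of genotype and region limma, edgeR and DESeq2 called 0 genes, with 321 (1.64%) at an unadjusted limma p under 0.05, 276 by edgeR and 324 by DESeq2.

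Leaving Myo3b out, the estimates of 8 of 8 members were below 0 in both regions, meaning lower values in Foxp2hum/hum. Their median was -0.14 in DMS and -0.16 in DLS. Over all genes 49.9% were below 0 in DMS and 52% in DLS. With the scaling that leaves out mitochondrially encoded genes, the median of all genes in DMS moved to 0.07, and 6 of the 8 were below 0 and 8 of 8 below that median; Myo5b stood at 0.02 and Myo9a at 0.01. Without libraries 70 and 72, 7 of 8 were below 0 in DLS, the exception being Myo9a at 0.02. The 8 genes vary together within groups, as given below, so these signs are not separate observations.

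Myo5a averaged 4041 ± 673 in wild-type DMS and 3564 ± 422 in Foxp2hum/hum DMS (SD, n = 11 and 12), a log2 difference of -0.17 with a 95% interval of -0.35 to 0.01. In DLS it averaged 4835 ± 839 and 4273 ± 572, also -0.17, with an interval of -0.35 to 0.01. For Myo16 in DLS the means were 185 ± 72.4 and 146 ± 45.4, a log2 difference of -0.31 with an interval of -0.65 to 0.04. Myo1d gave -0.21 in both regions, with intervals of -0.46 to 0.04 each. Myo9a was nearest to 0, at -0.01 in DLS with an interval of -0.21 to 0.19. Limma adjusted p ran from 0.843 to 0.978 over the 8 genes in DLS and was at least 0.955 in DMS.

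**Figure D4:**
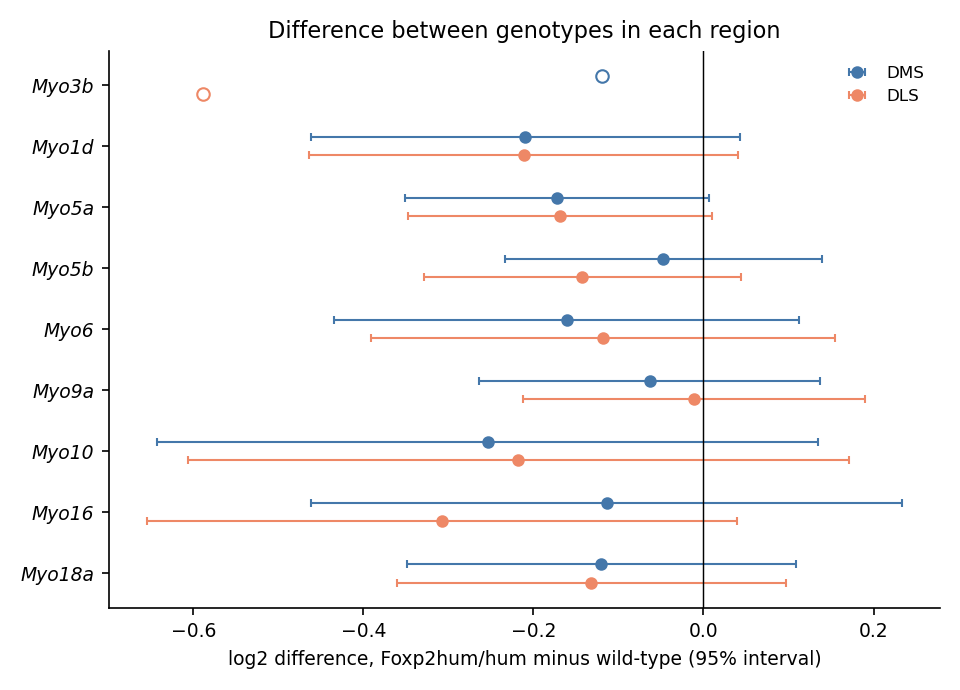
Log2 difference, Foxp2hum/hum minus wild-type, in DMS and DLS for the 9 genes. Filled points carry 95% intervals from limma, which include 0 for the 8 other members in both regions, and Myo3b is drawn as open points without an interval because it was picked for this difference (-0.12 in DMS and -0.59 in DLS).

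Within groups the members moved together from library to library. After subtracting the mean of each group, the Pearson correlation of log2 values over the 46 libraries was positive for all 36 pairs, from 0.28 to 0.87 with a median of 0.64. The closest pair was Myo10 with Myo18a and the loosest Myo5b with Myo9a. Myo3b correlated with the other 8 at 0.45 (Myo5b) to 0.66 (Myo16), where the median over 12329 genes with a mean of at least 50 was 0.07. Genes outside the family correlated with Myo3b more closely than any member did, the closest at 0.73 (Ncoa6). The 36 pairs were not set against pairs of other genes, so their values are not read as particular to myosins. All points of such a correlation share a library and its size factor, so it is a description only.

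**Figure D5:**
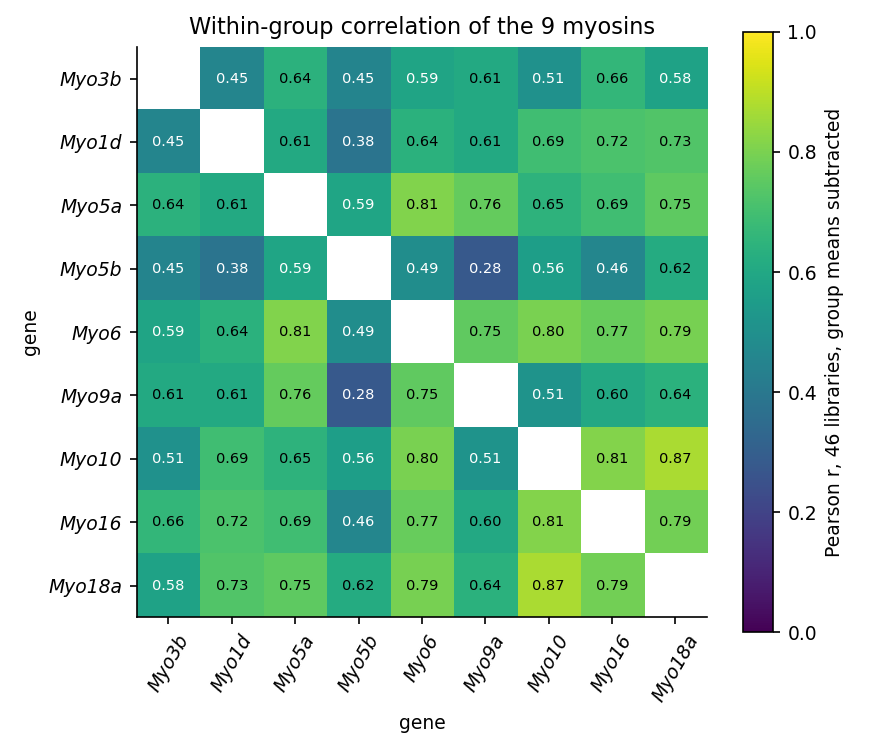
Pearson correlation between each pair of the 9 genes over 46 libraries, computed on log2 values after subtracting group means, on a colour scale from 0 to 1. All 36 values are positive, from 0.28 to 0.87, and those in the Myo3b row run from 0.45 to 0.66.

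By the same measure the genes most like Myo3b were Ncoa6, a nuclear receptor coactivator gene (r = 0.73), Magi3, a scaffold gene (0.73), Zkscan1, a zinc finger gene (0.72), Mll5 (0.72) and Sp1, a general transcription factor gene (0.71). Their regional estimates ran from -0.03 to 0.02 except that of Sp1, at log2 0.32. The least like were the ribosomal protein gene Rpl9 (-0.74) and 2 loci named as its pseudogenes, Rpl9-ps4 (-0.74) and Rpl9-ps6 (-0.75). How reads were assigned among these loci is not known here, so the 3 values are uncertain.

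Without subtracting group means, which keeps the differences between groups in the measure, other genes led. Tmod1, which encodes an actin-capping tropomodulin, was closest (r = 0.91), followed by Lpl, the lipoprotein lipase gene (0.90), Pik3r4 (0.90), Plcb1, a phospholipase C gene (0.90), and Actn2, the gene of an actin-crosslinking alpha-actinin (0.90). All 5 had lower means in DMS, with log2 differences of -0.49 for Tmod1, -1.04 for Lpl, -0.85 for Pik3r4, -0.51 for Plcb1 and -0.79 for Actn2. Between genotypes in DLS their differences ran from -0.18 (Lpl) to -0.08 (Plcb1), against -0.59 for Myo3b. Farthest were AL672259.1 (-0.91), Nnat (-0.88) and Ly6h (-0.88), all with higher means in DMS. Among the members, Myo5a (0.73) and Myo18a (0.66) were closest to Myo3b by this measure and Myo16 (-0.11) was farthest.

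The other unconventional myosins comprised 16 genes, of which 12 had a mean of at least 10 and were tested. In the regional comparison averaged over genotypes 3 were higher in DMS and 3 lower, with a median log2 of -0.04, where 31.8% of all genes passed (16.5% higher and 15.3% lower). The 3 lower include Myo3a, whose value is not read here as a measure of that gene because of the overlap given below. Myo5c, of the same class as Myo5a, was lower at a low level (32.7 ± 15.7 against 52.1 ± 17.6 normalised reads, SD, n = 23 each; log2 -0.73, limma adjusted p = 0.00353). Myo7a, a motor of hair cell stereocilia, was higher in DMS (246 ± 73.97 against 179 ± 60.2; log2 0.47, limma adjusted p = 0.00143).

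Myo1e (log2 0.37, limma adjusted p = 0.0135) and Myo9b (0.28, limma adjusted p = 0.0153) were also higher in DMS. The Myo9b gene overlaps Haus8 on the opposite strand, whose value amounts to 64.7% of that of Myo9b. Myo3a, the other class III gene, also passed (log2 -0.30, limma adjusted p = 0.0307). Its value averaged 522900 normalised reads, and Gm13340 within it amounts to 60.98% of that. The class III pair was not compared here. Between genotypes and in the interaction 0 of the 12 passed.

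Of 36 partner genes (light chains, cargo adaptors and anchors of these motors), 33 were tested and 18 passed regionally, 7 higher and 11 lower in DMS, with a median log2 of -0.09. Over all genes 31.8% passed, 16.5% higher and 15.3% lower, with a median of 0.01. Calm3 and Calm2 encode calmodulin, which serves as light chain of most unconventional myosins and has many other partners, and both were lower in DMS: log2 -0.49 for Calm3 (limma adjusted p = 3.4e-13) and -0.61 for Calm2 (limma adjusted p = 5.56e-08). Tax1bp1, a Myo6 adaptor gene, was lower as well (1691 ± 177 against 2115 ± 175, SD, n = 23 each; log2 -0.33, limma adjusted p = 5.8e-08). Calml4, a calmodulin-like gene (log2 3.17, limma adjusted p = 5.97e-10), and Vasp, an actin-elongation gene (log2 0.77, limma adjusted p = 1.02e-07), were higher in DMS. Calml4 averaged 30.4 ± 19.4 in DMS and 3.04 ± 3.74 in DLS.

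Of the known partners of class III myosins, Espn, the espin gene, was higher in DMS at a very low level (12.96 ± 6.23 against 8.66 ± 7.56 normalised reads, SD, n = 23 each; log2 1.04, limma adjusted p = 0.0262). Espnl was below the level tested, at 0.851 ± 1.16 and 1.38 ± 1.85. Morn4 was well detected and did not pass (755 ± 60.2 against 718 ± 102; log2 0.08, 95% interval -0.02 to 0.19). Between genotypes 0 of the 33 partners passed in either region.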

How the data were processed

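Messenger RNA of laser-captured striatum was sequenced on an Illumina GAIIx over 3 flow cells. Per the submitters' processing notes, mm9, TopHat 1.4.1, bedtools and DESeq were used; counting settings are not given there. The authors deposited a normalised signal per gene and library, read counts divided by 1 DESeq size factor per library. Each value (100%) equalled a whole number of library-specific steps (tolerance 0.01), which gave back the reads. Library groups come from the table's header. limma 3.58.1 (R 4.3.3) was fitted to log2(value + 1) for 19561 genes whose mean reached 10 (4 group means, 46 libraries, trend; two-sided, Benjamini-Hochberg over all genes, threshold 0.05). A fold change is on that log2 scale, and for low genes it can be smaller or larger than the ratio of the group means. The procedure was tested on simulated data. GENCODE M1 gave mm9 positions and overlaps, and figures were drawn with matplotlib 3.10.9. Overlaps are of whole gene spans, and whether exons overlap or reads were counted for both genes was not tested.

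The members, lists and tests were chosen with earlier results of these data known. All 9 members were named. Other unconventional myosins and partners were named where they passed in the averaged regional contrast, at most 6 per list by p, and Espn, Espnl and Morn4 were added after; some genes that the rule names are not reported here. Genes most like Myo3b were the 5 highest and 3 lowest correlations, leaving out Gm, LOC and Rik symbols. Alternatives were other pseudocounts, filters and scalings, edgeR 4.0.16 and DESeq2 1.42.0 on recovered reads, array weights, Ttr as a covariate, compared groups alone, and libraries left out. Libraries of the 2 regions may share animals, which the regional p-values ignore.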

Additional observations from a re-analysis of the deposited data

How the results depend on the processing

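The regional Myo3b difference (log2 -1.16) kept its direction and passed under every alternative run, with -1.20 to -1.13 when 1 library was left out. The count of 4 members called fell to 2 with Ttr as a covariate and to 2 with scaling to the total without mitochondrially encoded genes. It was 3 with quantile normalisation, where Myo5a lost its call. Myo10 gained a call with array weights. Leaving out 1 library gave a count of 4 to 5. Genes called in DMS minus DLS were 2198 in wild-type with that scaling (3377 as reported), and with Ttr as a covariate 2279 in Foxp2hum/hum (3550) and 3860 averaged over genotypes (6220). For genotype in DLS, where limma called 0, DESeq2 called 3 (Myo3b, Ccdc153 and AI115009) and array weights 1 (Myo3b); leaving out 1 library gave 0 to 1, AI115009 without library 77. As Myo3b was picked for this contrast, nothing is read from its call. The cause of these changes was not tested. Of the members' tested values under the alternatives that keep all libraries or leave out 70 and 72, 603 stayed on their side of the threshold, 13 lost and 4 gained the call, and no called value changed sign. Of 2254 such values in fits that left out 1 library, 25 changed their call, all of Myo5a, Myo10, Myo16 or Myo18a between regions. The Myo3b values given without a test are in neither tally. Subtracting overlapping genes was chosen after seeing the data. The averaged contrast and the interaction use all 4 groups, so a fit of compared groups alone was not run for them. No paired analysis was possible because the labels give no numbers that link libraries across groups. Depth limits Myo16 most, with as few as 56 reads in 1 library.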

Other observations

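Conventional, filament-forming myosins were not part of the family described above. Of 9 listed heavy chain, light chain and kinase genes 7 were tested, and 1 passed regionally, where 31.8% of all genes did. Myh10, which encodes the non-muscle heavy chain IIB of neurons and other cells, was lower in DMS, with a mean of 2498 ± 741 there and 3534 ± 1056 in DLS (normalised reads, SD, n = 23 each; log2 -0.49, limma adjusted p = 0.000925). It passed in wild-type (log2 -0.54, limma adjusted p = 0.0228) and in Foxp2hum/hum (-0.45, limma adjusted p = 0.0475). The median log2 over the 7 genes was -0.16. Between genotypes 0 of the 7 passed.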
